A study of Homo sapiens with 2 samples.

Results

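Peaks centred in a LINE-1 (L1) element made up 1943 of the 44771 APC peaks of the list (4.34%, 95% Wilson interval 4.16 to 4.53). They were chosen by their repeat label: a peak was taken when the detailed annotation of its centre named a LINE repeat of the L1 family. The choice used no measured value other than the place of the peak centre. By the letters of the label the peaks fell into L1HS and L1PA (617 peaks), L1PB (105), L1M (1087), the remaining primate names L1P and L1PREC (79) and the half-L1 names HAL1 (55). The label carries no information on the cells, so it was checked only against the other annotation: all 1943 centres were intronic or intergenic, and none lay in a promoter or exon class. That follows from the order of the annotation, which gives promoter and exon classes before repeats.

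The study mapped where APC, a tumour suppressor that keeps β-catenin low in the WNT pathway, sits on the chromatin of HCT-116, an established human colon carcinoma line. The APC ChIP group was 1 library from HCT-116 cells with wild-type APC and the CTNNB1 Ser45 deletion, precipitated with 10 µg of a polyclonal antibody against the last 50 amino acids of APC. The input group was 1 library of the same cells and genotype, taken after pre-clearing with rabbit IgG. Cells of both groups were untreated and were fixed 24 h after seeding in 1% formaldehyde for 10 min, and a control precipitation was not analysed here. The peaks come from 1 list of the APC ChIP library, in hg19 coordinates, and no values of the input library were analysed. There is therefore no replicate of the APC ChIP library, and no test between conditions was run. Whether the input served as the control when the peaks were made is not stated in the sources used here. Intervals cover counting error over peaks within this list, and neighbouring peaks or copies of one element are not independent. The list holds no read counts, so the depth and the strength of each peak are unknown.

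As a check of the labelled cell type, 11 of 24 colon epithelium markers had a peak of any kind within 10 kb of their start, against 15 of 24 markers of liver and other tissues. Named for a peak at any distance were 14 colon markers and 18 of the other tissues. In the whole list, 12226 of the 17266 named genes had a peak within 10 kb. That count holds only genes named for a peak. The like counts are 11 of the 14 named colon markers and 15 of the 18 named markers of other tissues. Among the colon genes named for no peak were KRT18, CDX1, LGALS4, GPA33, HNF4A, TFF3, CEACAM5, PHGR1 and FABP1. A list of binding sites is no measure of expression, and whether these cells express the markers cannot be read from it.

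LINE-1 elements are retrotransposons that copy themselves through RNA and reverse transcription, and their remains make up a large part of the human genome. The L1HS subfamily still holds copies able to move, L1PA and L1PB are lineages of primate age, and most L1M elements spread in early mammals and are now broken and diverged. A full-length young element carries a promoter in its 5′ end, to which YY1 binds, and chromatin and RNA-based silencing hold most copies inactive. In colon and other epithelial cancers young L1 elements often lose DNA methylation. Copies of the young subfamilies are nearly alike in sequence, so short reads from one copy can match many others.

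Among the L1-centred peaks, 12 were long or close enough to cover the transcription start site (TSS) of their named gene. They are shown because they are the members that reach a gene start and not only the repeat. Promoter windows were found in the RefSeq table (GRCh38.p14) for 6 of these 12 genes, and 3 windows are printed, for COX19, which helps assemble cytochrome c oxidase, and ARHGDIA, an inhibitor of small GTPases of the cytoskeleton. The COX19 window is chr7:975500-975799 on the minus strand, and the ARHGDIA windows, 2 starts of one gene, are chr17:81871288-81871587 and chr17:81870948-81871247, both on the minus strand. Each window runs 5′ to 3′ in the direction of the gene from 250 bases before its start to 50 after it. Capitals mark a match to the YY1 letters AAGATGGC.
COX19: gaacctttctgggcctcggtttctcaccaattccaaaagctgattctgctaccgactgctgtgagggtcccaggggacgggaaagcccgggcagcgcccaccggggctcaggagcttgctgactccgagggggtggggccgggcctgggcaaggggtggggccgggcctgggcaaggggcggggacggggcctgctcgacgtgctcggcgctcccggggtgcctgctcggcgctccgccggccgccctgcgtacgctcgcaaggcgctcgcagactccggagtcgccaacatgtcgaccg
ARHGDIA, start 1: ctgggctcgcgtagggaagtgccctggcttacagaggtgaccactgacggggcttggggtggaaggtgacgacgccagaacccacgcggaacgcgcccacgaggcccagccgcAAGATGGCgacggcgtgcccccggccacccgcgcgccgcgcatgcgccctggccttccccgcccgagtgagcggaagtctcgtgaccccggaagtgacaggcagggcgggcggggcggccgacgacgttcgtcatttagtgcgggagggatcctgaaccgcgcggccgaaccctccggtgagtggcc
ARHGDIA, start 2: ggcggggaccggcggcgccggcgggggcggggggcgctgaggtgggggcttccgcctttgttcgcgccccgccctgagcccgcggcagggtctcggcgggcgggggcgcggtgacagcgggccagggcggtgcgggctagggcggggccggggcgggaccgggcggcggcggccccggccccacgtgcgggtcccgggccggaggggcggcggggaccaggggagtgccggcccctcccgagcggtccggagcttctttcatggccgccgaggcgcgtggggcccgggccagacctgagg

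The COX19 peak was a 2732-bp peak centred in an L1ME2z element (hg19 chr7:1012891-1015621), in the first of 2 introns, with its centre 979 bp downstream of the TSS and its edge 387 bp beyond it. The ARHGDIA peak was 7248 bp long and centred in an L1M4 element 3464 bp upstream (hg19 chr17:79829123-79836369), and it reached 160 bp past the TSS. The sources used here do not say which of the ARHGDIA starts the peak list used, and whether the peak reaches both was not examined. The windows were searched on both strands for the TCF/LEF letters CTTTGAT, the AP-1 letters TGANTCA and the YY1 letters, which do not overlap one another as motifs. Windows were taken at each start of a gene in the RefSeq table, so not all are at the start that the peak covers. The SEC14L1 windows begin at chr17:77088435, 77140719 and 77184963, farther apart than its 5427-bp peak is long. Of the 11 windows found for the 6 genes, ARHGDIA start 1 held 1 match, to YY1, and the other 10, printed or not, held none of the 3 motifs. Of all 35116 promoter windows of the table, 2.62% held the TCF/LEF letters, 7.71% the AP-1 letters and 2.89% the YY1 letters. The GC share of the printed windows was 71.3% in COX19, 71.7% in ARHGDIA start 1 and 83.7% in ARHGDIA start 2. In the windows not printed it ran from 42.3% to 78%, both at starts of SEC14L1, and was 43.3% in DSG1-AS1. The GC share of all windows of the table was not computed.

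Old L1M elements held most of the L1-centred peaks, but the single names with most peaks were young. The L1M names held 55.9% (95% Wilson interval 53.7 to 58.1) and were spread over 75 names. The L1HS and L1PA names held 31.8% (29.7 to 33.9) under 18 names, L1PB 5.40% (4.48 to 6.50), L1P and L1PREC 4.07% (3.27 to 5.04) and HAL1 2.83% (2.18 to 3.67). L1PA2 led with 139 peaks, followed by L1PA3 with 111, the L1M name L1M5 with 75, and L1HS with 64. Together the youngest 4 names, L1HS, L1PA2, L1PA3 and L1PA4, held 365 peaks (18.8%, 17.1 to 20.6). The 112 names included 7 with a single peak. L1 peaks were 8.28% of the 23470 peaks with a repeat label and most of the 2642 LINE-labelled ones, of which 630 were in L2. How many copies or bases each subfamily has in the genome was not used, so these counts do not say which subfamily held more peaks than its abundance gives.

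**Figure D1:**
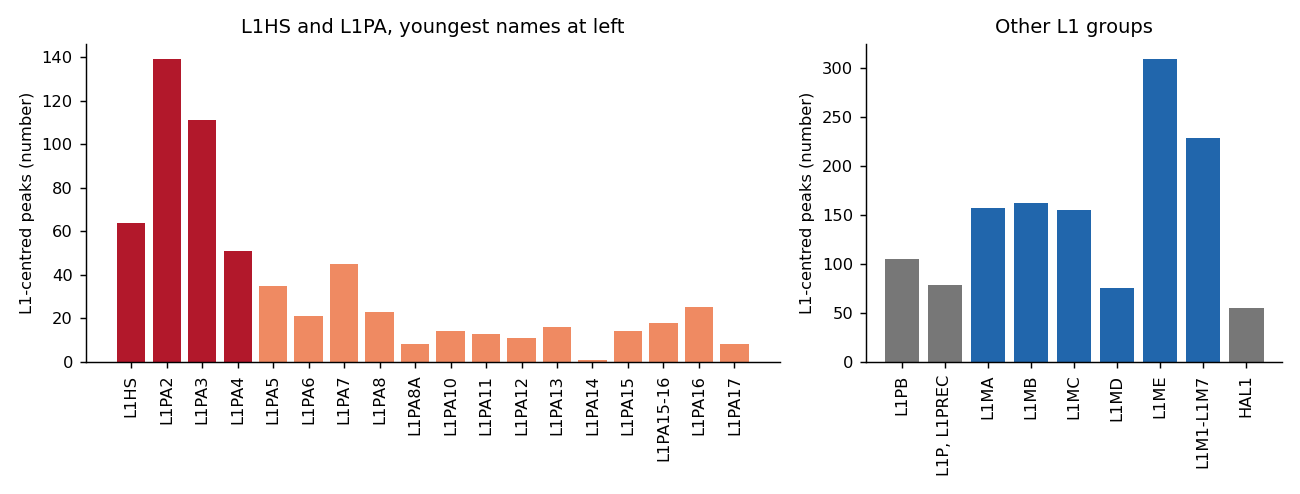
Number of L1-centred APC peaks (y axes) in the 1 list for each L1HS and L1PA name on the left, with L1HS to L1PA4 in dark red, and for the L1PB, L1P and L1PREC, L1M (blue) and HAL1 groups on the right; the 2 axes differ in scale. L1PA2 (139) and L1PA3 (111) stand above the other young names, and L1ME (309) is the tallest of the groups on the right.

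Within L1PA the higher numbers mostly had fewer peaks. L1PA4 had 51 peaks, L1PA5 35, L1PA6 21, and L1PA8 23, with L1PA7 (45) and L1PA16 (25) above that order and L1PA14 (1) below it. Within L1M the letters held 157 (L1MA), 162 (L1MB), 155 (L1MC), 75 (L1MD) and 309 (L1ME) peaks, and names with a number after L1M held 229. L1PB1 (60 peaks), L1ME1 (54), L1MB7 (47), HAL1 (43) and L1MB3 (39) were the other names with many peaks.

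L1-centred peaks had a narrow range of lengths, and the young ones the narrowest of the groups set out here. The median length of L1 peaks was 1207 bp (95% interval of the median 1182 to 1229), against 1364 bp (1352 to 1375) for peaks not centred in L1. The quartiles of L1 peaks were 972 and 1535 bp, a spread of 564 bp, against 850 and 2170 bp, a spread of 1320 bp, in the rest of the list. All 36576 intronic and intergenic peaks, the set from which repeat labels come, had a median of 1222 bp and a spread of 1130 bp. L1HS to L1PA4 had a median of 1209 bp (1175 to 1235) and quartiles of 1088 and 1336 bp, a spread of 248 bp. The other L1PA names had a median of 1148 bp and a spread of 581 bp, and L1M a median of 1187 bp and a spread of 736 bp. For repeats of other kinds, Alu peaks had a median of 870 bp and a spread of 803 bp, L2 peaks a median of 1577 bp and a spread of 1461 bp, and ERV1 peaks, of an endogenous retrovirus family, a median of 1229 bp and a spread of 777 bp. The ERV1 values were thus close to those of L1M. The deposited score column equals this length in each row, so it adds no measure of strength.

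Of the L1HS to L1PA4 peaks, 253 of 365 (69.3%, 95% Wilson interval 64.4 to 73.8) measured 1000 to 1400 bp, a range chosen after the values were seen. The share was 30.9% (28.2 to 33.7) for L1M, 38.8% (36.6 to 40.9) for all L1 peaks, and 17.8% (17.4 to 18.1) for peaks outside L1. Alu peaks had 15.3% in that range, L2 peaks 20.3% and ERV1 peaks 29.7% (26.6 to 33.0). Read the other way, L1 elements held 11.4% (10.4 to 12.5) of the intronic and intergenic peaks of 1000 to 1200 bp, but 1.23% of those up to 600 bp and 1.71% of those over 5000 bp. Only 6 of the L1HS to L1PA4 peaks (1.64%) were at most 800 bp long, against 8.75% of all L1 peaks and 21.9% of peaks outside L1. Whether the fragment size or the mapping of reads to repeats moves with these lengths was not tested.

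**Figure D2:**
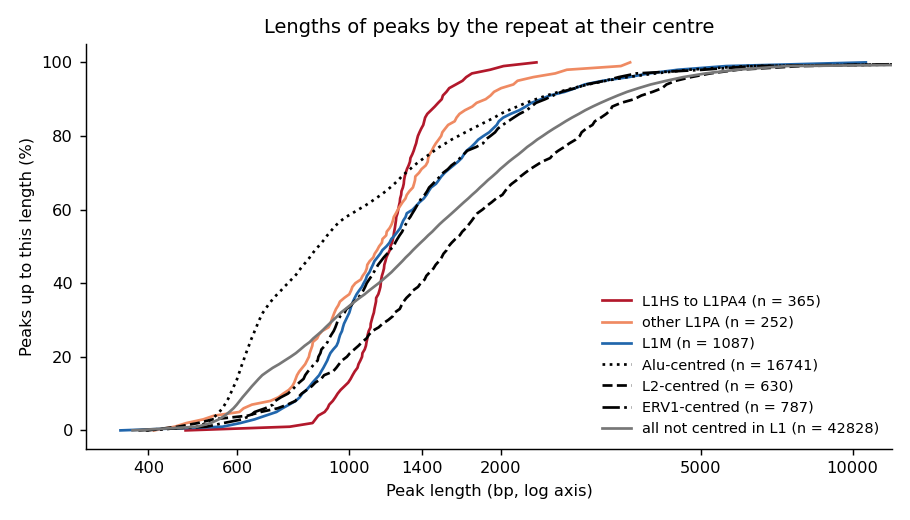
Cumulative share of peaks (y axis, percent) up to each length (x axis, bp, log axis) for L1HS to L1PA4, other L1PA, L1M, Alu, L2, ERV1 and all peaks outside L1, drawn from percentiles of the 1 list. The L1HS to L1PA4 line is the steepest of those drawn, with its quartiles at 1088 and 1336 bp.

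Within the 4 youngest subfamilies lengths also kept to a narrow range. L1HS peaks ran from 915 bp at ATP10B, in the third of 25 introns, through a median of 1174 bp to 1702 bp upstream of TMEM178B. L1PA2 peaks had a median of 1227 bp, and the shortest, 819 bp, was named for HACE1, 370243 bp from its TSS. L1PA3 ran from 760 bp, 114707 bp upstream of SPOCK3, through 1163 bp to 2357 bp in STK3, a kinase of the Hippo pathway. L1PA4 ran from 474 bp in DEPDC1B through 1240 bp to 2113 bp in VPS13B. The longest peak of any L1PA name was one of 3617 bp in an L1PA8 element of ATP2C2, a Golgi calcium pump, on chromosome 16, and the shortest was 410 bp in an L1PA8 element of CNBD1. The L1PB peaks reached 2935 bp, in an L1PB2 element in the fifth intron of VWA2, and the HAL1 peaks 4233 bp, upstream of KPNB1, which encodes the nuclear import receptor importin β.

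Within L1M the median length differed between the lettered groups. It was 1099 bp (interval 994 to 1226) for L1MA, 1322 bp (1248 to 1492) for L1MB, 1242 bp for L1MC, 1107 bp for L1MD and 1139 bp for L1ME. Single names went further, with 1686 bp for L1MC5 and 1550 bp for L1MB3 against 1084 bp for L1ME1. L1MB peaks also lay closer to starts, at a median distance of 23780 bp, than L1MA peaks, at 50235 bp.

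Long APC peaks at L1 elements were almost all at L1M. Of the L1 peaks, 18 were 5 kb or longer, of which 17 were L1M and 1 was L1P4, and 7 lay on chromosome 17 and 3 on chromosome 19. None of the 617 L1HS and L1PA peaks was that long, which allows a share of up to 0.619%, against 3.08% of the whole list. Peaks over 2000 bp were 3.73% of L1HS and L1PA, 15.3% of L1M, 11.1% of all L1 peaks and 28.9% of peaks outside L1.

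The longest L1-centred peak, 10625 bp, was intergenic in an L1M3 element 16758 bp from SNAR-E (chr19:47311892-47322515). The next, 9663 bp, was centred in an L1P4 element 2078 bp upstream of SNAR-A3 (chr19:50612993-50622654) and covered its TSS by 2754 bp. Both are genes of the SNAR family of small non-coding RNAs, which lie in near-identical copies, so the reads of one copy can be placed on another. A 9529-bp peak in L1MB2 lay 49567 bp upstream of MIR6080 and a 9175-bp peak in L1MB4 lay 26270 bp downstream of the start of ACTG1, the gene of γ-actin. DENND3, a regulator of Rab GTPases, had an 8989-bp peak in L1MB3 in the seventh of its 22 introns. Only the centre decided the label, and how far these long peaks extend beyond the repeat at their centre was not measured.

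The remaining peaks among the 15 longest were between 5466 and 7248 bp. They were named for ARHGDIA, SLC39A1 (a zinc importer, 6179 bp, reaching 1268 bp past its TSS), MIR3180-2, SLC45A1, LGALS3BP, WDR4, PDE4A (a cAMP phosphodiesterase), MIR4710, GPX1 (a glutathione peroxidase) and RPTOR (a subunit of the growth kinase complex mTORC1). Of the 15 longest, 14 were L1M, 5 were intronic and 5 were on chromosome 17. The shortest L1-centred peak was 352 bp, in an L1MDa element 680474 bp upstream of PABPC1P2.

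L1-centred peaks lay farther from a TSS than the rest of the list, and young ones farther than old ones. The median distance from the peak centre to the TSS of the named gene was 39429 bp (95% interval 36738 to 42067) for L1 peaks, against 17509 bp (17174 to 17880) for the rest and 25985 bp for all intronic and intergenic peaks. It was 75695 bp (64946 to 86925) for L1HS and L1PA, 28624 bp (26416 to 30774) for L1M, 40091 bp for L1PB, 99883 bp for L1P and L1PREC, and 29611 bp for HAL1. Alu peaks, at 29146 bp, were near L1M, L2 peaks were at 19890 bp, and ERV1 peaks, at 41910 bp, were close to the L1 median. Among the young names L1HS was at 139357 bp, L1PA2 at 96654 bp, L1PA3 at 87192 bp and L1PA4 at 26056 bp.

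Within 10 kb of a TSS lay 275 L1 peaks (14.2%, 95% Wilson interval 12.7 to 15.8), against 38.7% (38.2 to 39.2) of peaks outside L1 and 25.8% of all intronic and intergenic peaks. The share was 6.00% (4.38 to 8.16) for L1HS and L1PA and 19.9% (17.6 to 22.3) for L1M, against 20.2% for Alu, 31.4% for L2 and 15.5% (13.1 to 18.2) for ERV1. Beyond 100 kb lay 41.7% (37.8 to 45.6) of L1HS and L1PA peaks, 16.7% of L1M peaks, 26.4% (24.4 to 28.4) of all L1 peaks and 12.6% of the rest, and ERV1 peaks were at 27.7% (24.7 to 30.9). All L1 peaks together were therefore close to ERV1 peaks in their distance from a TSS. Part of the gap from the rest follows from the annotation, since promoter and exon peaks cannot carry a repeat label, but Alu, L2 and ERV1 labels carry the same limit.

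Among intronic and intergenic peaks, the share in L1HS or L1PA elements was 0.270% at 1 to 5 kb from a TSS and 6.30% beyond 500 kb. The L1M share was 2.00% at 1 to 5 kb and 2.68% beyond 500 kb, and between 5 and 500 kb it stayed between 2.67 and 3.57%. All L1 peaks together were 0.440% of such peaks within 1 kb (7 of 1592), 5.75% at 20 to 50 kb and 10.1% beyond 500 kb (64 of 635).

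**Figure D3:**
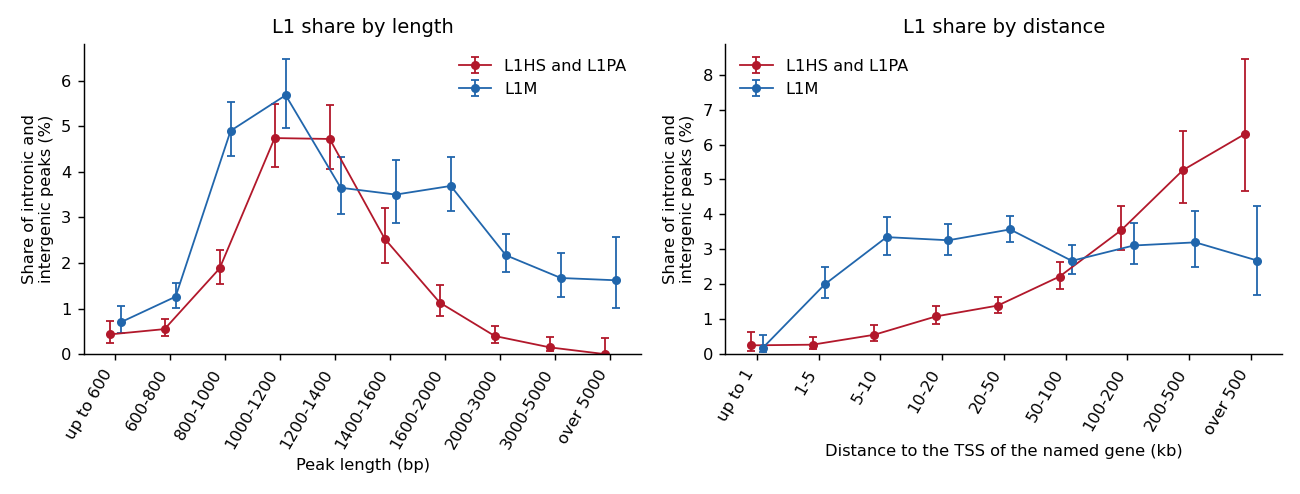
Share of intronic and intergenic peaks (y axes, percent) centred in L1HS or L1PA and in L1M elements by peak length and by distance to the TSS (x axes), with 95% Wilson intervals as bars, over the 1 list. The L1HS and L1PA share reached 6.30% beyond 500 kb, while L1M stayed between 2.67 and 3.57% from 5 to 500 kb.

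L1M peaks near a TSS were longer than those far from one, while intronic (1160 bp) and intergenic (1212 bp) L1M peaks had medians close to each other. L1M peaks within 10 kb of a TSS had a median of 1420 bp (95% interval 1303 to 1550, n = 216 peaks), against 980 bp (951 to 1031, n = 181 peaks) for those beyond 100 kb. For L1HS and L1PA the same medians were 1231 bp (1104 to 1344, n = 37 peaks) and 1151 bp (1121 to 1187, n = 257 peaks), with intervals that overlap. Across peaks, as a description without a test, Spearman's correlation of length with distance was −0.14 for L1HS and L1PA (n = 617), −0.30 for L1M (n = 1087) and −0.45 for peaks outside L1 (n = 42828). All these peaks share 1 library and its depth.

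Introns held 904 of the L1 peaks (46.5%, 95% Wilson interval 44.3 to 48.7) and the space between genes 1039 (53.5%). L1HS and L1PA were intronic in 37.9% (34.2 to 41.8), L1M in 52.3% (49.3 to 55.2), L1PB in 41.9%, HAL1 in 63.6% and L1P and L1PREC in 29.1%. Of the intronic L1 peaks 27.5% (24.7 to 30.5) were in the first intron, against 33.7% of intronic peaks outside L1. That share was 23.1% for L1HS and L1PA and 31.2% for L1M. Downstream of the TSS lay 55.1% of L1 peaks and 59.0% of the rest, while L1PB was at 39.0% (30.3 to 48.6). The named gene coded for a protein in 75.2% of L1 peaks and 80.1% of the rest.

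Just 7 L1 peaks were centred within 1 kb of a TSS, 5 of them at non-coding RNA genes. All 7 were downstream, as were all 1592 intronic and intergenic peaks at that distance, since the annotation gives the promoter class first. A group of 4 were L1HS or L1PA2 peaks with centres 303 to 420 bp into a non-coding gene. LINC00858 had an 895-bp L1PA2 peak 303 bp from its TSS (chr10:86039593-86040486). LOC101928600 had one of 1088 bp at 314 bp (chr5:57853213-57854299). DSG1-AS1, antisense to the gene of the skin adhesion protein desmoglein, had one of 1124 bp at 349 bp (chr18:28932989-28934111). LSAMP-AS1, antisense to a neuronal adhesion gene, had a 1231-bp L1HS peak at 420 bp (chr3:116078677-116079906). Each of the 4 peaks also ran 144 to 230 bp past the TSS, so the start of the transcript lay inside the peak and its centre inside a young L1 in an intron.

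The other 3 within 1 kb were L1M peaks and were longer. LOC101927746 had a 3812-bp L1M2 peak at 289 bp, AKNA, which encodes an AT-hook protein, a 2705-bp L1ME4a peak at 731 bp, and COX19 its 2732-bp L1ME2z peak at 979 bp. Next by distance were HERC2P7 (1294 bp downstream), AGO2, which encodes an Argonaute protein of RNA silencing (1496 bp upstream, L1ME3B, 2403 bp long), and TLK1, a chromatin kinase (1773 bp upstream, L1ME1, 1153 bp long). SEC14L1 had a 5427-bp L1MC5 peak that reached 936 bp past its TSS. Of all intronic and intergenic peaks, 2052 covered the TSS of their named gene, of which these 12 were L1-centred.

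All 64 L1HS peaks lay on 16 chromosomes, 30 of them in introns, and none on chromosomes 9, 10, 13, 17, 19, 21, 22 or Y. Examples, chosen after their values were seen, follow. DLG2, a synaptic scaffold, had a 1157-bp peak in intron 3 of 27, 301893 bp into the gene (chr11:85035844-85036999). NRXN3, a neurexin, had one of 1288 bp in its first intron (chr14:79780152-79781438), CDH8, a cadherin, one of 1252 bp in intron 2 of 11 (chr16:61952072-61953322), and AUTS2 one of 989 bp in intron 4 of 17 (chr7:69662285-69663272). KCNIP4, a potassium channel partner, had one of 941 bp. Intronic L1HS peaks also lay in genes of other kinds, such as LRP2 (1041 bp), PHLPP1 (966 bp), DIS3L2 (1446 bp) and ME1 (1477 bp). The L1HS peak farthest from a TSS was 1368 bp long and lay 1067519 bp from EPHA3, an ephrin receptor. Besides LSAMP-AS1, the nearest was the 1702-bp peak 6493 bp upstream of TMEM178B.

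A smaller share of L1 peaks than of other peaks had a neighbouring peak, and the share was smallest in the youngest of the L1 groups given here. Measured from edge to edge, another peak of any kind lay within 10 kb of 735 L1 peaks (37.8%, 95% Wilson interval 35.7 to 40.0), against 50.2% of peaks outside L1 and 48.9% of all intronic and intergenic peaks. The share was 15.3% for L1HS to L1PA4 (56 peaks), 22.2% (19.1 to 25.7) for all L1HS and L1PA, and 46.1% (43.1 to 49.1) for L1M, against 46.7% for Alu, 52.2% for L2 and 39.8% (36.4 to 43.2) for ERV1, which was close to all L1 peaks. L1MB had 58.0%. Another L1 peak lay within 10 kb, edge to edge, of 82 L1 peaks (4.22%, 3.41 to 5.21), which formed 41 neighbouring pairs. In 37 of these pairs the centres, too, were within 10 kb, and each pair was named for 1 gene. Of the 37, 6 had the same name and none joined 2 L1HS to L1PA4 peaks.

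Among those 37 pairs, 6 were one arrangement repeated on chromosome 9: an L1P3 peak beside an L1P4b peak. They were named for ZNF658, GLIDR, LOC642929, LOC101927827, LINC01189 and LINC01410, over 25.0 Mb. All were intergenic and far from the named gene. The centres of the L1P3 peaks lay from 128804 bp (GLIDR) to 424151 bp (LINC01410) from its TSS. The L1P3 peaks were 1525 to 1618 bp long, the L1P4b peaks 1773 to 2025 bp, and the centres 2024 to 2206 bp apart. At ZNF658 the L1P3 peak was 1559 bp (chr9:41002295-41003852) and the L1P4b peak 1773 bp (chr9:41004284-41006055). At LINC01410, at the far end, they were 1618 bp (chr9:66032330-66033946) and 1810 bp (chr9:66034258-66036066). The order along the chromosome was L1P3 first in 5 pairs, and L1P4b first at GLIDR. These pairs held all the L1P3 and L1P4b peaks of chromosome 9, which were 6 of 17 L1P3 and 6 of 9 L1P4b peaks in all. The part of chromosome 9 around its centromere is known for large duplicated blocks, and whether the 6 pairs are copies that share reads was not tested.

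**Figure D4:**
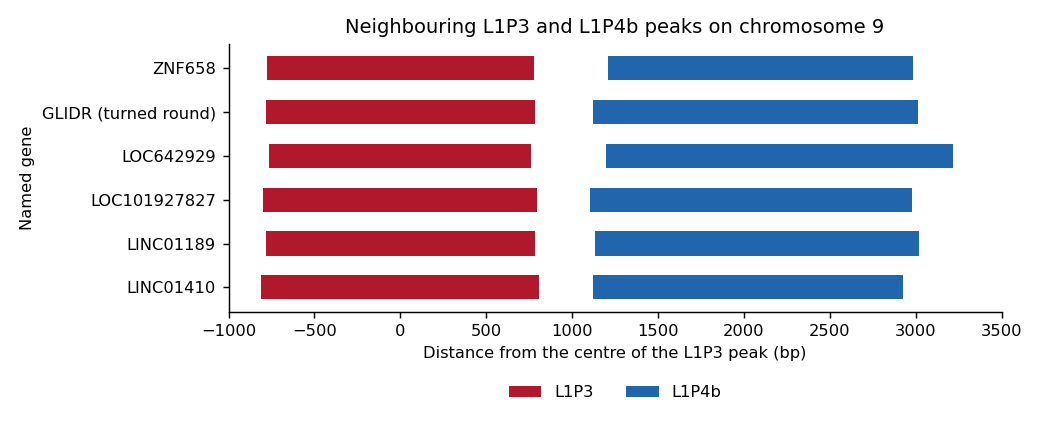
Positions of the L1P3 and L1P4b peaks of the 6 chromosome 9 pairs (y axis, named gene) relative to the centre of the L1P3 peak (x axis, bp), with the GLIDR pair turned round. In all 6 the centres are 2024 to 2206 bp apart, with L1P3 peaks of 1525 to 1618 bp.

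Some of the genes with most L1 peaks were named at more than 1 place. Of the 1696 named genes, 1505 had 1 L1 peak, 150 had 2, 30 had 3, 7 had 4 and 4 had 5. ANKRD20A12P, FAM27E2, FOXD4L4 and LINC01189 had 5 each. FOXD4L4, of a forkhead gene family in several copies, was named at places 27842 kb apart on chromosome 9. At each there was an L1PB1 peak at nearly the same distance upstream, 11135 bp (613 bp long) and 11050 bp (795 bp long). FAM27E2 had an L1PREC2 peak at 45978 bp (1230 bp long) and another at 46005 bp (1160 bp long), also at separate places. LOC100506076 on chromosome 2 had L1PA12 peaks at 6792 bp (3596 bp long) and 6181 bp (2372 bp long).

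In contrast, ATRNL1, CEP112 and RIMS2, which encodes a synaptic vesicle protein, each had 4 L1 peaks inside introns of 1 gene. The ATRNL1 peaks were 475 and 725 bp in L1PA6, 808 bp in L1M3a and 906 bp in L1MA6, all shorter than the L1 median. The RIMS2 peaks were 929 to 1422 bp and the CEP112 peaks 1072 to 1448 bp. FSTL5 had 4 over 1883 kb, of 558 to 1231 bp, in L1P2, HAL1, L1PA5 and L1MA3 elements.

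The share of peaks centred in L1 differed between chromosomes. It was 6.06% on chromosome 8 (141 of 2327, 95% Wilson interval 5.16 to 7.10), 6.03% on chromosome 4 (140 of 2320), 5.75% on 21 and 5.44% on 3, and the lowest values were 1.99% on 19 (40 of 2010, 1.46 to 2.70), 2.81% on X (16 of 569, 1.74 to 4.52) and 2.86% on 11. Chromosome Y had 2 of 16. Besides Y, which had none among its 16 peaks, the young names were rarest on 17, with 2 of 2708 peaks (0.0739%, 0.0203 to 0.269), against 91 L1M peaks (3.36%) on the same chromosome. These 2 were a 1264-bp L1PA5 peak near KRTAP9-8 and a 2169-bp L1PA15 peak in PPM1E. Chromosome 19 had 4 (0.199%) and 16 had 6 (0.320%), whereas 8 had 60 (2.58%) and 4 had 57 (2.46%). The shares on chromosomes 4 and 8 were lower among peaks of at least 2135 bp, the third quartile of the list. In that set the L1 share was 0.826% (0.227 to 2.96) on 4 and 2.98% (1.84 to 4.78) on 8. On 19 it was 1.24% (0.724 to 2.10) and on X 0 (0 to 8.20). These intervals overlap, so that set gives no order of the chromosomes. The shares also depend on the denominator, since promoter and exon peaks cannot carry an L1 label. Of intronic and intergenic peaks alone, L1 held 7.01% on 8, 7% on 4 and 2.66% on 19. On X it held 4.35% (2.69 to 6.95) of them, against 5.31% over all chromosomes. The L1 content of each chromosome was not used, so its part in these shares was not tested.

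**Figure D5:**
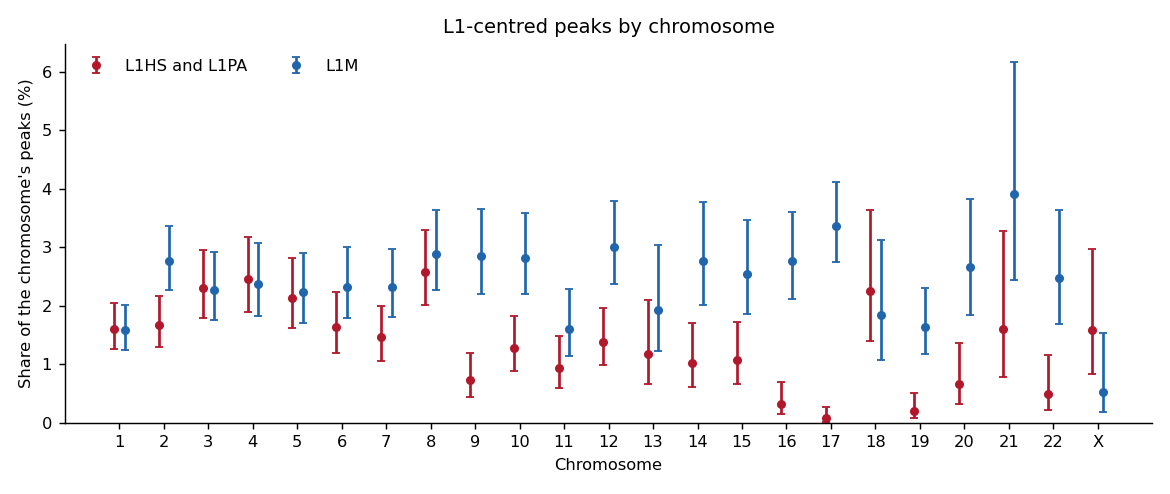
Share of the peaks of each chromosome (y axis, percent; chromosome Y not drawn) that were centred in L1HS or L1PA and in L1M elements, with 95% Wilson intervals, over the 1 list. Chromosome 17 had 2 L1HS or L1PA peaks and 91 L1M peaks.

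Gene lists were read for their L1 peaks as counts only, beside the 1696 of all 17266 named genes (9.82%) that had one. The number of peaks per gene was not matched between lists, and a gene with more peaks has more chances of an L1 peak. Counted by peaks and not by genes, L1 held 4.34% of the whole list. Of 24 WNT target genes, 22 were named for some peak and 5 of these (22.7%) for an L1 peak. TCF7, a DNA-binding partner of β-catenin, had a 1492-bp L1MB7 peak in its first intron, 3850 bp from the TSS (chr5:133454455-133455945). ASCL2, a factor of intestinal stem cells, had an 814-bp L1MEc peak 7274 bp upstream (chr11:2299050-2299862). RNF43, a ubiquitin ligase that removes WNT receptors, was named for a 1527-bp L1MB3 peak at −7365 bp (chr17:56501534-56503059). It lay upstream of the RNF43 TSS, in an intron of another transcript. These were the 3 within 10 kb, all L1M, and all 3 genes had other peaks too, 9 in all at TCF7 and at RNF43 and 2 at ASCL2. Farther off, the WNT inhibitor DKK1 had a 1206-bp L1PA3 peak at 51593 bp, and AXIN2, a scaffold of β-catenin breakdown, a 1491-bp L1PB1 peak 58753 bp upstream.

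Of 30 genes of the WNT pathway, 28 were named for a peak and 4 (14.3%) for an L1 peak. None of these was within 10 kb, where 270 of the 17266 named genes had one. The co-receptors LRP6 and LRP5 had peaks of 1016 bp (L1MC4a) and 1296 bp (L1MB3) in introns 31039 and 32554 bp from the TSS. The receptor FZD1 was named for an L1HS peak of 1155 bp at −90734 bp, which lay in an intron of another transcript, and an L1PA3 peak of 1162 bp at 130624 bp. The ligand WNT11 was named for a 1265-bp L1M1 peak at 186348 bp.

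Genes that restrain or serve L1 elements were read in the same way. Of 38 host factors, 34 were named for a peak. A peak of any kind lay within 10 kb of the TSS for 24 of these 34, against 12226 of all 17266 named genes. Only 1 of the 34 (2.94%) was named for an L1 peak. That was TDRD1, a tudor protein of the germline piRNA pathway, with a 1590-bp L1MD1 peak in an intron 19015 bp from the TSS. YY1, the L1 promoter factor, had its closest peak of any kind 100 bp from the TSS, ADAR 236 bp, SAMHD1 254 bp, MOV10 413 bp and DNMT1 544 bp, and none of these was centred in L1.

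Long genes of neurons and cell adhesion stood at the other end. Of 24, 19 were named for a peak, and 9 of these (47.4%) for an L1 peak. Any peak within 10 kb of the TSS was found for 5 of these 19, against 12226 of all 17266 named genes. The L1 peaks of CNTNAP2 (1272 bp, L1PA2), CTNNA3 (1004 bp, L1PA5, and 603 bp, L1PA11), FHIT (949 bp, L1PA5), DLG2, NRXN3 and NAALADL2 (1418 bp, L1PA3) were in L1HS or L1PA elements. LRP1B and DPP6 had 1 each in L1M. Gene length was not matched between lists, and a longer gene has more places for an L1 element and a peak. Of the colon epithelium markers, CDH17, an intestinal cadherin, and CLDN3, a tight junction protein, were named for L1 peaks, of 1184 bp for CDH17 and of 1210 and 1682 bp for CLDN3, while among other-tissue markers F2, the gene of prothrombin, had one of 1982 bp.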

How the data were processed

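Chromatin of HCT-116 cells was fixed, sonicated, digested with micrococcal nuclease and precipitated with an anti-APC antibody, per the labels' protocols. A single deposited table of 44771 annotated peaks of the 1 APC ChIP library was analysed. Per the submitters' processing notes, the tool was MACS2 and the build hg19. The sources used here do not give the aligner, the threshold, the use of the input or the treatment of reads that match several places. The deposited score is end minus start plus 2 bp in all 44771 rows, and it was used as a length. Annotation, signed distance in bp from the peak centre to a TSS, and gene name and type were taken as deposited, per the file headers. Coordinates are printed as the table gives them. Read depth per peak is not known.

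Peaks with an L1 label were grouped by name. Members and gene lists were chosen with earlier results of these data known. Genes were named by rule: the 15 longest L1 peaks, the 10 nearest a TSS, the longest of each age group, those that cover a TSS, all L1HS, the genes with most L1 peaks, and list members. The shortest peaks, the peaks of chromosomes 17 and X, 2 further groups within 50 kb, the host factors named for their closest peak of any kind, the 1000 to 1400 bp range and the chromosome 9 pairs and repeated genes were chosen after their values were seen. Shares have 95% Wilson intervals and medians have 95% exact binomial order-statistic intervals. With 1 library per group no test was run. The interval, naming and spacing steps were checked on simulated data. Alternatives were other length minimums, merging within 500 bp, leaving out HAL1, sex chromosomes, or peaks of 5 kb or more, other distance windows and denominators. Leaving out chromosome 9 was added after seeing the data. Promoter sequences are from RefSeq (GRCh38.p14), matched by symbol. Peak sequences were not used here. Some genes covered by this rule are not reported here. Python 3.11.15, numpy 2.4.6, pandas 2.3.3, scipy 1.17.1 and matplotlib 3.10.9 were used.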

Additional observations from a re-analysis of the deposited data

How the results depend on the processing

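Among peaks of at least 1350 bp, the median of the list, L1 peaks were 3.18% of the list, with 23.6% L1HS and L1PA, 60.8% L1M and 9.42% L1P, L1PREC and HAL1. Their median length was then 1715 bp, their median distance 26406 bp, and 20.0% lay within 10 kb of a TSS. Among peaks of at least 2135 bp, the third quartile, L1 peaks were 1.63%, with 8.74% L1HS and L1PA, 2.73% L1PB and 80.9% L1M, a median length of 2782 bp, a median distance of 17743 bp, and 34.4% within 10 kb of a TSS. In that set 44.3% had another peak within 10 kb and 2.19% another L1 peak. Both settings select on length itself. Merging peaks within 500 bp left 35.6% with another peak nearby, and leaving out HAL1 left 4.18% in the other names. Over intronic and intergenic peaks alone the L1 share was 5.31% and 34.9% had another such peak nearby, and among repeat-labelled peaks the share was 8.28%. The share near a TSS was 0.360% within 1 kb, 57.9% within 50 kb and 73.6% within 100 kb. Another peak within 1 kb or 50 kb was found for 6.69% or 79.0% of L1 peaks, and another L1 peak for 1.13% or 13.0%. Genes with an L1 peak numbered 270 within 10 kb, 1328 within 100 kb and 1696 at any distance. Leaving out X and Y, peaks of 5 kb or more, or chromosome 9 kept the following values within their 95% intervals. Chromosome 9 was chosen after seeing the data. The values were the shares of L1HS and L1PA, L1PB, L1M and all other names pooled, and the median length and distance. The intronic share, the share within 10 kb of a TSS and both shares with a neighbour within 10 kb were kept too. L1P and L1PREC, with 21 of their 79 peaks on chromosome 9, were not followed as a group of their own.

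No paired analysis was possible because each group had 1 library and no result came from a test. The depth is unknown, so no limit from depth can be put on a share.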

Other observations

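Small clusters of L1 peaks occurred at 5 places with 3 peaks within 50 kb. In NSMCE2, which encodes a SUMO ligase of DNA repair, all 3 were in intron 5 of 7, at L1MC2 (914 bp), L1MB3 (1046 bp) and L1M5 (1151 bp). In RIMS2 they were at L1PA10, L1ME1 and L1M3e. Upstream and inside ZNF16 and near TMED10P1 they were at L1MB5 (1025 bp), L1PBa (2296 bp) and L1PA8 (1339 bp). The others were at ANKRD20A12P and LOC100506076.

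Chromosome X had 9 peaks in L1HS or L1PA, 3 in L1PB, 3 in L1M and 1 in L1P3. Among the L1PB1 peaks of X, 2 were named for LINC01186, of 1193 and 1935 bp. An L1PA7 peak of 749 bp lay 1917 bp downstream of the LOC101060211 start. L1M made up 0.527% of the peaks of X.

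MicroRNA genes were named for 72 of the 1943 L1 peaks, of which 9 were within 10 kb. How often the other peaks of the list were named for a microRNA gene was not counted, so these counts show no difference from the list.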
